A study of Mus musculus with 21 samples.

Results

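The genes described here are 9 mouse genes of folate and nucleotide synthesis, Tyms, Mthfd1, Mthfd2, Mthfd1l, Shmt1, Shmt2, Aldh1l2, Rrm1 and Rrm2, chosen by name from a fixed list. They are 9 of the 19304 protein-coding genes of at least 2 kb for which the percent of the gene body inside H3K36me3 peaks, called cover below, was computed. All 9 were found in the gene table, and 8 of them, all but Rrm2, passed the filter on low cover used for the tests. H3K36me3, trimethylation of lysine 36 of histone H3, lies over the bodies of transcribed genes and is laid down by the enzyme SETD2. It was profiled by chromatin immunoprecipitation and sequencing in C2C12, a mouse myoblast line that fuses into muscle fibres in culture. The 20 libraries came from wild-type (WT) cells and from 2 lines labelled Setd2 knockout (KO), at day 0, at day 1 and day 5 in control medium, and at day 1 and day 5 under methionine restriction. For each of these 5 conditions there were 2 replicate WT libraries and 1 library per KO line. The labels do not say how the KO lines were made, whether each is a clone, how much methionine the restricted medium held, or whether replicates are separate cultures, so p-values measure the spread between these libraries, which may be technical.

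Folate carries single-carbon units, mostly taken from serine, to the reactions that build thymidylate and purines and that remethylate homocysteine to methionine. Serine hydroxymethyltransferase loads the units in the cytosol (Shmt1) and in the mitochondrion (Shmt2). The mitochondrial enzymes Mthfd2 and Mthfd1l oxidise them and release formate, which the cytosolic enzyme Mthfd1 puts back on folate, while Aldh1l2 burns them to carbon dioxide with production of NADPH. Thymidylate synthase (Tyms) uses them to make thymidylate, and ribonucleotide reductase (Rrm1, the large catalytic subunit, and Rrm2, the small subunit whose level is known to peak in S phase) makes the other deoxynucleotides. Tyms and the reductase are known for high expression in dividing cells, and myoblasts leave the cell cycle as they form muscle. Methionine is the source of the methyl donor for histone methylation.

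Peaks covered 110 to 183 Mb of the genome in the WT libraries. The 2 restricted groups covered less (110 to 134 Mb) than the control groups and day 0 (140 to 183 Mb), so most genes had less cover under restriction and each difference below is set beside the median of all genes. KO line 1 covered 0.307 to 74.1 Mb and KO line 2 covered 0.00821 to 7.13 Mb, in both lines least at restricted day 1. The read depth of the libraries is unknown, and cover records the reach of the called peaks, not how much of the mark was there. In bulk chromatin, a mark lost in some cells and a mark weakened in all cells cannot be told apart. Setd2 itself had 45.6% to 82.8% cover in the WT libraries, 0 to 24.0% in KO line 1 and 0 in KO line 2, which reports the mark on the gene and not the SETD2 protein. All 8 muscle markers examined had cover in at least 1 WT group. Their mean cover summed to 242 points at day 0, 406 at control day 1, 119 at restricted day 1, 591 at control day 5 and 191 at restricted day 5. Their part in the results below was not tested. The 3 blood and 2 liver markers measured were at 0 in every WT library, as were 2 of 4 neuron, 2 of 3 epithelium and 2 of 3 adipocyte markers. The exceptions were Nefl, with 39.9% mean cover at day 0, 33.1% at control day 1 and 0 in the other WT groups, and Rbfox3, Cdh1 and Pparg, with at most 0.0678%, 0.438% and 4.46% in a WT library.

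The gene bodies, on GRCm38, range from the 5.322 kb of Shmt2 (chr10:127517123-127522444, minus strand) to the 194.19 kb of Mthfd1l (chr10:3972892-4167081, plus strand). Between them lie Rrm2 (chr12:24708254-24714146, plus), Mthfd2 (chr6:83305704-83326011, minus), Shmt1 (chr11:60788897-60811265, minus), Rrm1 (chr7:102441695-102469771, plus), Tyms (chr5:30038546-30073645, minus), Aldh1l2 (chr10:83487447-83534146, strand not given in the tables used here) and Mthfd1 (chr12:76254406-76319820, plus). Other annotated genes share bases with some of them. The long non-coding RNA gene Gm51778 overlaps 56.5% of Aldh1l2, other genes overlap 19.4% of Mthfd1 and 8.59% of Mthfd1l, and peaks on shared bases count for both genes. Tyms has a named pseudogene copy, Tyms-ps, and reads from a near-identical copy could be placed on either, so its values are uncertain to that extent.

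The 250 bases before the start site are shown for the pairs that differed most within a family, Shmt1 with Shmt2 and Rrm1 with Rrm2, from RefSeq (GRCm38.p6), written 5′ to 3′ on the gene's strand. Capitals mark matches on either strand to CCAAT or to the GC box GGGCGG, and matches to the GC box may overlap each other. The regions are chr11:60811266-60811515 (minus), chr10:127522445-127522694 (minus), chr7:102441445-102441694 (plus) and chr12:24708004-24708253 (plus), in the order shown.
Shmt1: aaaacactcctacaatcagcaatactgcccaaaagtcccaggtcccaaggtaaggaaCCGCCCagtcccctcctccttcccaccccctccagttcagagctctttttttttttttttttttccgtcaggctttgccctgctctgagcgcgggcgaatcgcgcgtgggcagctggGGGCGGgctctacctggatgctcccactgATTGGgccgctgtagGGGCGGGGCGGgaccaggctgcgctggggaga
Shmt2: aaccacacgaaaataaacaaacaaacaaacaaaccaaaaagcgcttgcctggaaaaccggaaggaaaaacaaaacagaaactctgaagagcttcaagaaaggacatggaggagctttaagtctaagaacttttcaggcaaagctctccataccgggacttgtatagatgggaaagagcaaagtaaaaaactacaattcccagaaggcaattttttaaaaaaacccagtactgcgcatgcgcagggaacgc
Rrm1: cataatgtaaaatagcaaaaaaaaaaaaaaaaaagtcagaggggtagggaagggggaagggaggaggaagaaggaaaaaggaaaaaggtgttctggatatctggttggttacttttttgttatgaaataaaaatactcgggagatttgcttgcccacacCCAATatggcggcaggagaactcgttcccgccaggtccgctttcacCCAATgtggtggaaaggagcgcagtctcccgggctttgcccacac
Rrm2: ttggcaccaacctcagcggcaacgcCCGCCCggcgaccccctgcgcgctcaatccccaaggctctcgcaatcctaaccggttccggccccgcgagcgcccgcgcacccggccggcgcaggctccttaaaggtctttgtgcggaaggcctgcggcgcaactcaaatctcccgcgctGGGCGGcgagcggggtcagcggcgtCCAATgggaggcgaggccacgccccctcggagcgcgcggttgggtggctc
The Shmt1 sequence held 4 GC boxes and 1 CCAAT, and that of Shmt2 held neither. The Rrm1 sequence held 2 CCAAT and no GC box, and that of Rrm2 held 1 CCAAT and 2 GC boxes. CCAAT was present in 33.8% and GGGCGG in 32.7% of the 32851 promoters of this length in the table. No E2F motif (TTTNNCGC, in 4.28% of promoters), a letter pattern of factors of the cell cycle, and no amino acid response motif (TGATGNAA, in 3.45%) was found in the 8 members that the table held, and the E-box CACGTG (in 6.02%) was found in Tyms alone, once. A match is a run of letters and not a measured site. Of the bases, 72.4% were G or C in Rrm2 and 40.8% in Shmt2, against a median of 52.4% over all promoters in the table. None of the 10 WT libraries had a peak in the window from 250 bases before to 50 bases after the start site of these 8 genes, so the marked part of the 7 of them that had any lay outside that window.

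At day 0 the mark covered 8 of the 9 genes, and Rrm2 had none. Rrm1 had the highest cover, 95.1% and 91.1% in the replicates, and was the member with the highest cover in each of the 10 WT libraries. Shmt2 (75.2% and 77.6%), Mthfd1 (80.6% and 77.4%), Mthfd1l (72.8% and 68.6%) and Aldh1l2 (70.4% and 65.3%) followed, and then Shmt1 (56.7% and 52.9%), Tyms (54.1% and 46.3%) and Mthfd2 (44.8% and 44.5%). Of all protein-coding genes, 53.8% and 54.4% had any cover in these libraries. Cover of at least 50% was found for 7 and 6 members in the day 0 replicates, 5 and 5 at control day 1, 5 and 3 at restricted day 1, 4 and 3 at control day 5 and 3 and 2 at restricted day 5. Over all genes, such cover was found for 28.3% and 26.1% of genes at day 0, 22.1% and 23.5% at control day 1, 15.8% and 12.5% at restricted day 1, 27.2% and 25% at control day 5 and 17% and 17.5% at restricted day 5. The lower member counts in the restricted groups thus went with a lower share over all genes, and the lower counts at control day 5 went with a share near that of day 0. This holds for the cut at 50%. Cover of at least 25% was found for 8 and 8 members at restricted day 1 against 7 and 7 at control day 1. At day 5 it was found for 5 and 5 under restriction against 6 and 6 in control medium. No share over all genes was computed for that cut.

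**Figure D1:**
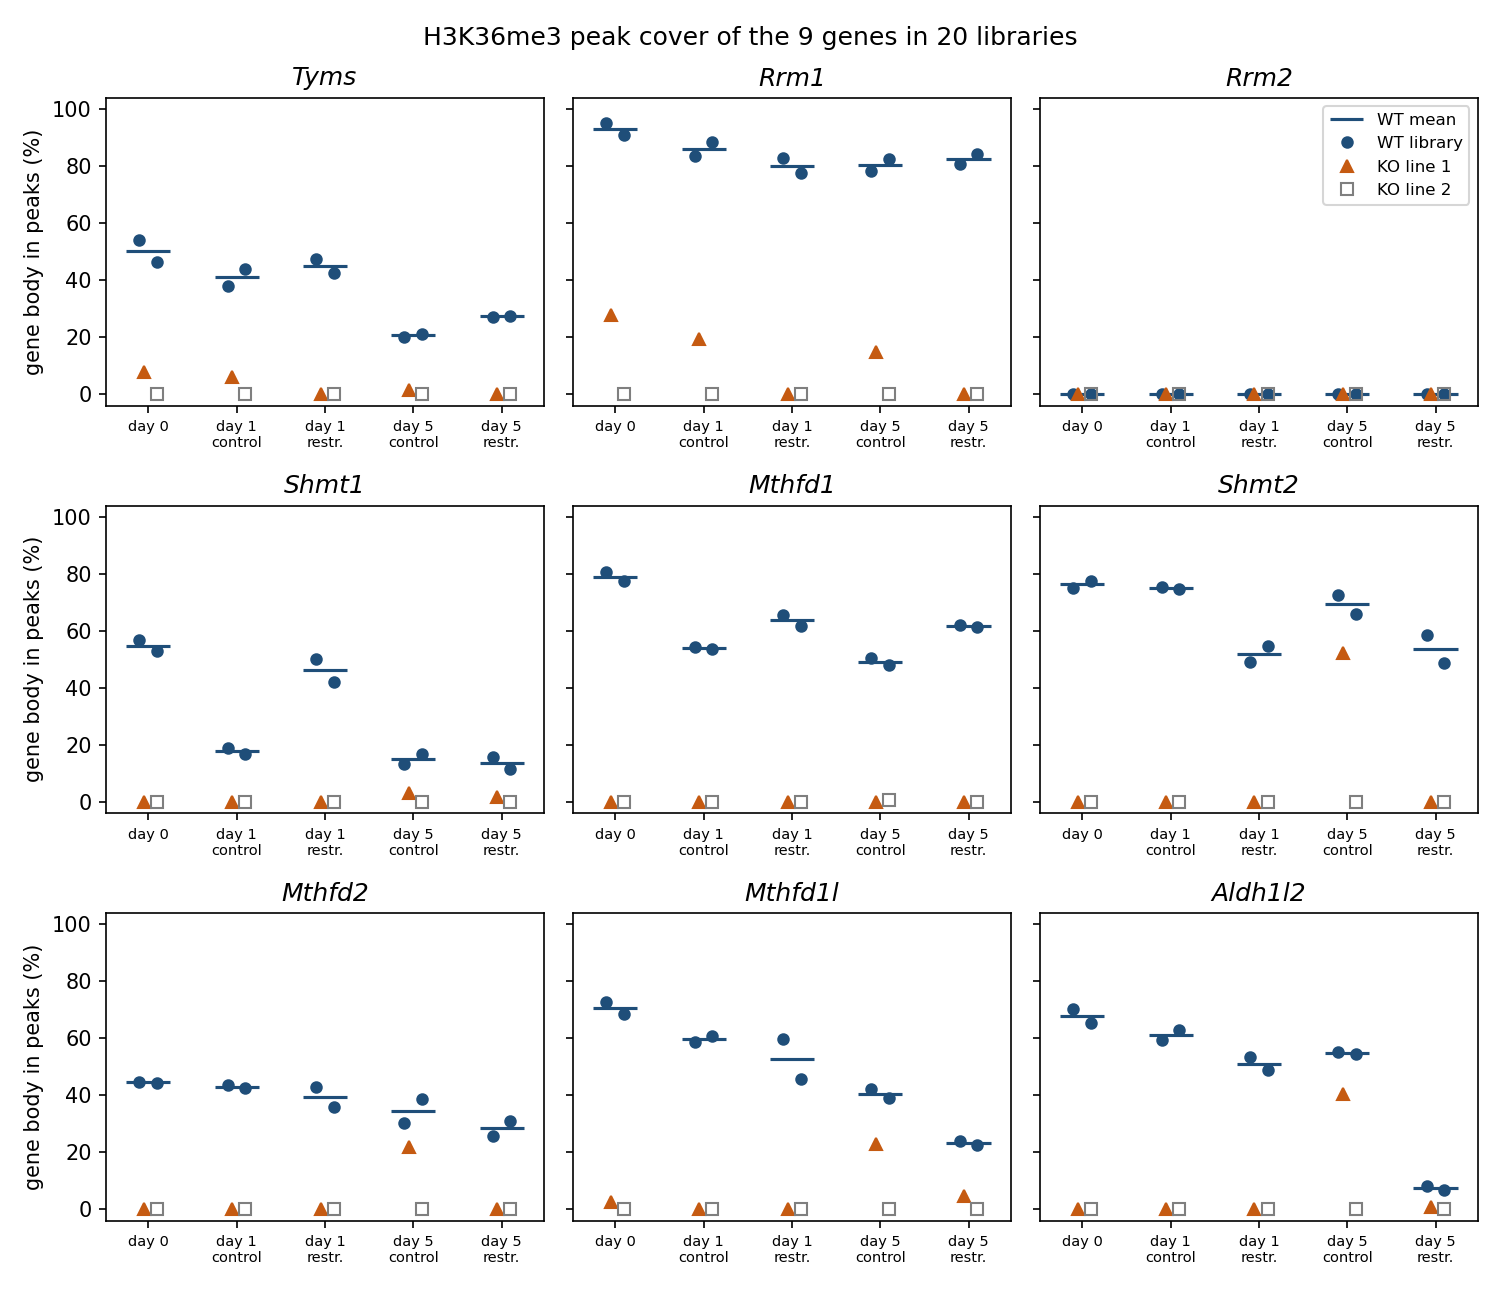
Percent of each gene body inside H3K36me3 peaks (vertical axis) in the 5 conditions (horizontal axis). Circles are the 2 WT libraries of a condition with their mean as a bar, triangles are KO line 1 and open squares are KO line 2. Tyms, Shmt1, Mthfd1 and Mthfd1l step down between day 0 and control day 5, Aldh1l2 drops at restricted day 5, and Rrm2 is at 0 throughout.

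The cover was not spread evenly along the genes. Over 7711 genes, 81.5% to 87.4% had more cover 3′ than 5′ of the midpoint, depending on the WT library. Shmt1, Mthfd1, Rrm1 and Shmt2 followed that order in each of the 10 WT libraries. In Shmt2 the 3′ part was covered to 69.3% to 100% and the 5′ part to 23.5% to 55.3%. Tyms was the other way round. Its 5′ part was covered to 40.3% to 87.2% and its 3′ part to 0 to 21.0%, with 2 to 9 merged stretches that began 1.37 to 3.09 kb after the start site. In Mthfd1l, too, the 5′ part (32.0% to 85.3%) had more cover than the 3′ part (12.5% to 60.3%) in each WT library. The Mthfd2 body as annotated reaches 8.41 kb upstream of the start site in the promoter table, and its 5′ part was at 0 in all 20 libraries. Counted from that start site, Mthfd2 cover was 43.8% to 76.4% in the WT libraries, higher than its 25.7% to 44.8% over the whole body.

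**Figure D2:**
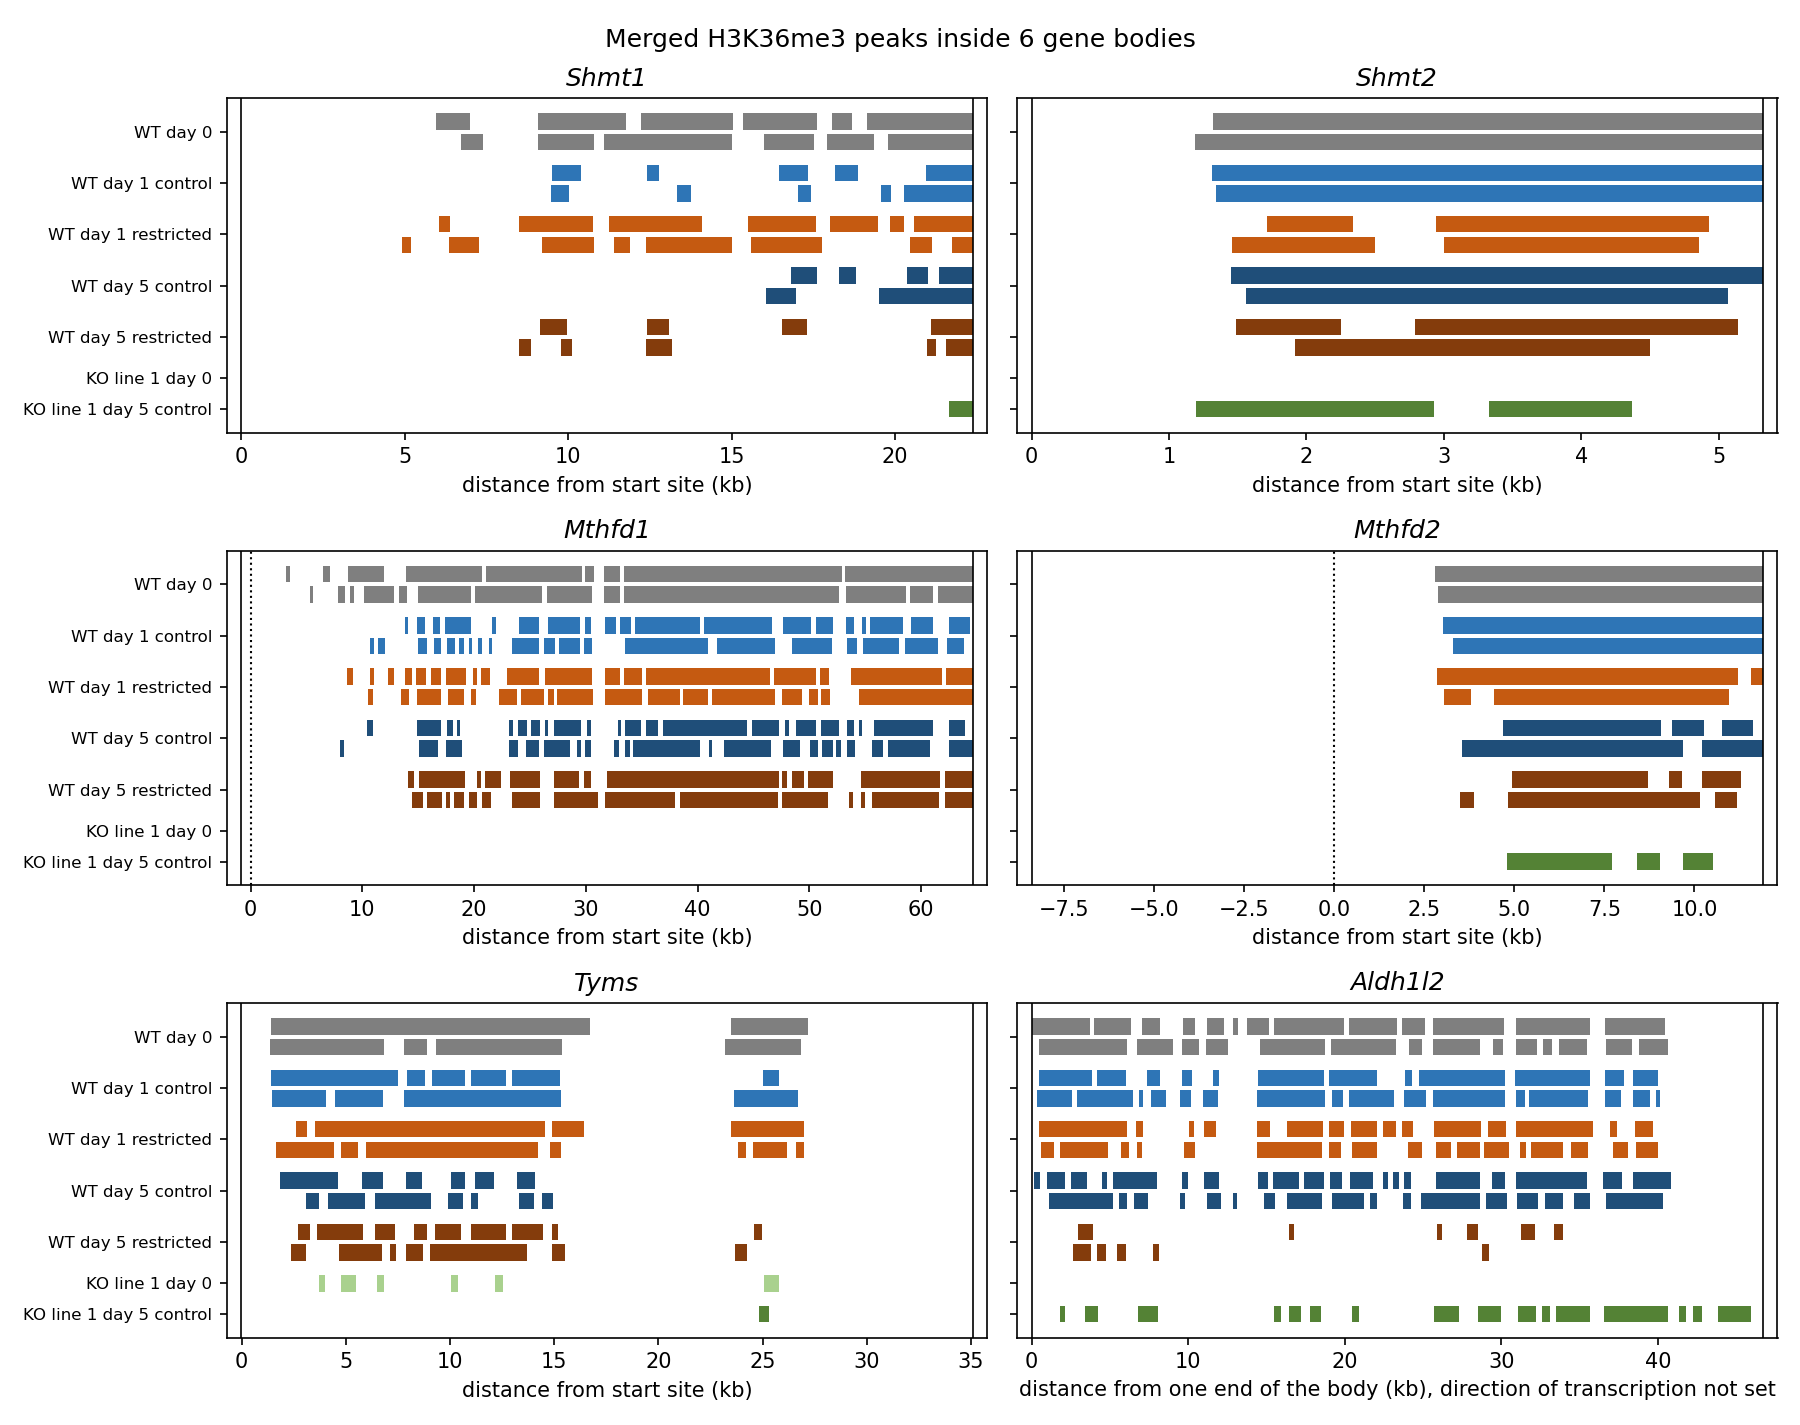
Merged H3K36me3 peaks (bars) inside 6 gene bodies (vertical lines mark the ends) in the 10 WT libraries and in KO line 1 at day 0 and control day 5 (rows), against distance in kb from the start site or, for Aldh1l2, whose strand is not given, from one end of the body. Peaks of Tyms lie toward the start site and cover less at day 5, while those of Shmt1, Shmt2 and Mthfd1 lie toward the 3′ end.

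Between day 0 and day 5 in control medium, 6 of the 8 tested members lost cover and none gained. Over all 9514 genes tested, 15.6% were called lower and 12.2% higher, and the median gene differed by -1.17 points, against a median of -21.3 points over the 8 members. Tyms was covered to 20.2% and 21.1% at day 5, less than the 46.3% of the lower day 0 replicate, and fell by 29.5 points (SE 4.18, limma, adjusted p = 0.000993). Shmt1 went from 56.7% and 52.9% to 13.4% and 16.8% and fell by 39.7 points (SE 3.95, limma, adjusted p = 0.000128), the greatest loss among the members on this scale, though not with only the stronger peaks kept. Mthfd1 went from 80.6% and 77.4% to 50.4% and 48.0% and fell by 29.8 points (SE 3.37, limma, adjusted p = 0.000279). The 3 genes thus hold thymidylate synthase and both cytosolic folate enzymes of the list. Among the mitochondrial enzymes, Mthfd1l fell by 30.1 points (SE 4.98, limma, adjusted p = 0.00245), from 72.8% and 68.6% to 42.1% and 39.1%. In these 4 genes the groups did not overlap, and the fall was called under every alternative run, with adjusted p of at most 0.0262. With −log10 q of at least 3 the differences were -58.0 points for Mthfd1, -45.2 for Mthfd1l, -44.0 for Tyms and -34.4 for Shmt1, and with lists of equal covered length they were -55.5, -31.9, -39.7 and -28.2 points. The control day 5 replicates of Mthfd1 were far apart with −log10 q of at least 3, at 2.77% and 25.3%.

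The other 4 members had smaller differences over the same days on the scale of all deposited peaks. Rrm1 fell by 12.7 points (SE 3.02, limma, adjusted p = 0.0143) but still had 78.4% and 82.4% cover at day 5. Without replicate 1 of day 0 the Rrm1 difference was -10.7 points with adjusted p = 0.0728 (limma), and without replicate 1 of control day 5 the adjusted p was 0.0958, so the call rested on those libraries. The size of the Rrm1 difference moved with the peak threshold, to -32.0 points with −log10 q of at least 3 and -61.2 points with lists of equal covered length, both called (limma, adjusted p = 0.00236 and 0.00868). Aldh1l2 fell by 13.1 points (SE 3.84, limma, adjusted p = 0.0347). That call was lost without replicate 1 of day 0 and without either replicate of control day 1, control day 5 or restricted day 5 (limma, adjusted p 0.054 to 0.126), with −log10 q of at least 3 (-35.8 points, limma, adjusted p = 0.104), with lists of equal covered length (-8.05 points), with the compared libraries alone, with bodies without bases of other genes and with the replicate block. Aldh1l2 values were 55.1% and 54.4% at control day 5. Mthfd2 had 30.1% and 38.6% at day 5 against 44.8% and 44.5% at day 0, a difference of -10.3 points (95% interval -20.3 to -0.19) that was not called (limma, adjusted p = 0.125). With only peaks of −log10 q of at least 3, the Mthfd2 difference was -16.5 points and was called (limma, adjusted p = 0.0438), as it was at the same value with lists of equal covered length (limma, adjusted p = 0.0274). For Shmt2 the difference was -7.17 points (95% interval -17.3 to 2.94) and not called (limma, adjusted p = 0.28). The mitochondrial Shmt2 thus kept 72.7% and 65.8% cover at day 5 where its cytosolic counterpart Shmt1 kept 13.4% and 16.8%.

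Part of this loss was already present at control day 1. The median gene differed by -5.31 points from day 0, and 5.67% of genes were called lower and 0.967% higher. Shmt1 had 19% and 16.9% cover at day 1 and fell by 36.9 points (SE 3.95, limma, adjusted p = 0.00232). Mthfd1 had 54.2% and 53.7% and fell by 25 points (SE 3.37, limma, adjusted p = 0.00659), and by 41.3 points with −log10 q of at least 3. These 2 of 8 members were called lower, and none higher. Neither call held when the fit used the 4 libraries of the groups compared, with the same differences (limma, adjusted p = 0.135 for each), where limma called 0 genes and 1898 had an unadjusted p under 0.05, or with lists of equal covered length (-28.8 points for Shmt1 and -28.6 for Mthfd1, limma, adjusted p = 0.0991 and 0.0631). Tyms had 38.0% and 44.1% at control day 1, both below the 46.3% and 54.1% of day 0, a difference of -9.13 points that was not called (limma, adjusted p = 0.218). Mean cover of Tyms was thus 41.1% at control day 1 and 20.7% at control day 5, while that of Shmt1 was 17.9% and 15.1%. The steps of the genes were not tested against each other.

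Under methionine restriction at day 1, Shmt1 and Shmt2 moved in opposite directions. The median gene differed by -7.99 points between restricted and control libraries, with 36% of genes called lower and 2.38% higher. Shmt1 had 50.3% and 42.0% cover in restricted libraries against 19% and 16.9% in control libraries, and rose by 28.2 points (SE 3.95, limma, adjusted p = 0.000906). Both restricted values were below the 56.7% and 52.9% of day 0. When only peaks of −log10 q of at least 3 were kept, Shmt1 values were 9.30% and 20.9% against 10.3% and 9.31%, and the difference was no longer called (5.29 points, limma, adjusted p = 0.512). At day 0 the values with that threshold were 39.9% and 49.9%. Shmt2 had 49.1% and 54.5% in restricted libraries against 75.3% and 74.8%, and fell by 23.3 points (SE 4.41, limma, adjusted p = 0.00401). With each library centred, that is with its median cover over the tested genes subtracted, the Shmt2 difference was -8.10 points and not called (limma, adjusted p = 0.201), and that of Shmt1 was 43.4 points. With −log10 q of at least 3 the Shmt2 difference was -46.6 points. That gives 1 of 8 members higher and 1 lower.

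The remaining members at day 1 were not called. Mthfd1 had 65.5% and 61.8% under restriction against 54.2% and 53.7%, with no overlap, a difference of 9.70 points that missed the threshold (limma, adjusted p = 0.0508). With libraries centred it was 24.9 points and called (limma, adjusted p = 0.000592). Mthfd1 was also called higher with lists of equal covered length, where 1082 genes were called higher and 1973 lower. On ranks of cover it was called higher too, where 1951 genes were called higher and 1502 lower. Tyms (difference 3.87 points), Rrm1 (-5.99), Mthfd2 (-3.75), Mthfd1l (-6.88) and Aldh1l2 (-10.1) had adjusted p of 0.0684 to 0.54 (limma). Without replicate 1 of restricted day 1, Mthfd1l was called lower (-13.9 points, limma, adjusted p = 0.0428). On the centred scale 4 members were called higher and none lower: Tyms, Rrm1, Shmt1 and Mthfd1. Centring raised all genes together, so that their median difference turned from -7.99 to 7.20 points and the calls from 226 higher and 3422 lower to 3518 higher and 1245 lower.

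At day 5, among the members and with all deposited peaks, Aldh1l2 differed most under restriction. Its cover was 8.03% and 6.68% in restricted libraries against 55.1% and 54.4% in control libraries, and it fell by 47.4 points (SE 3.84, limma, adjusted p = 4.46e-05), against a median of -9.16 points over all genes. On the bases shared with no other gene, Aldh1l2 had 4.90% and 13.1% against 47.7% and 46.8%, and the fall of 38.3 points was called (limma, adjusted p = 0.000184). Few of the Aldh1l2 peaks at day 5 passed a stricter threshold. With −log10 q of at least 3 its cover was 0 and 0 in restricted libraries and 5.11% and 12.1% in control libraries, and the difference of -8.59 points was not called (limma, adjusted p = 0.698). The call was also lost with lists of equal covered length (-6.65 points, limma, adjusted p = 0.448), and held with centring and with any single library left out.

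Shmt2 and Mthfd1l were also called lower at day 5, and Mthfd1 was called higher. Shmt2 had 58.5% and 48.6% against 72.7% and 65.8% and fell by 15.7 points (SE 4.41, limma, adjusted p = 0.0196), and Mthfd1l had 24.0% and 22.6% against 42.1% and 39.1% and fell by 17.3 points (SE 4.98, limma, adjusted p = 0.0219). With libraries centred, the Shmt2 difference turned to 0.994 points and that of Mthfd1l was -0.595 points, and neither was called, nor was either on ranks of cover. Mthfd1l was also not called with −log10 q of at least 3 (-6.37 points, limma, adjusted p = 0.447) or with lists of equal covered length, where it turned to 1.36 points (adjusted p = 0.845). The Mthfd1l call was lost without any of the 4 libraries compared (limma, adjusted p 0.0578 to 0.111), and that of Shmt2 was lost without replicate 1 of the control group (adjusted p = 0.129) or replicate 2 of the restricted group (adjusted p = 0.134), and with the compared libraries alone (adjusted p = 0.0517). Mthfd1 had 62.1% and 61.2% against 50.4% and 48.0% and rose by 12.4 points (SE 3.37, limma, adjusted p = 0.0166). Its groups did not overlap, but the call was lost without replicate 2 of the control group or either restricted replicate (limma, adjusted p 0.067 to 0.0881). It was also lost on bases shared with no other gene (9.38 points, limma, adjusted p = 0.0625), while the difference was 39.0 points with −log10 q of at least 3, 50.3 with lists of equal covered length and 29.1 with centring. With −log10 q of at least 3 the control replicates of Mthfd1 were far apart, at 2.77% and 25.3%. In all, 1 of 8 members was called higher and 3 lower, where 4.32% of all genes were called higher and 41.5% lower.

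Tyms and Rrm1 were not called at day 5 on the scale of percent of cover, and were called higher under some alternatives, on which more genes in all were called higher as well. Tyms had 27.0% and 27.6% in restricted against 20.2% and 21.1% in control libraries, a difference of 6.63 points without overlap (limma, adjusted p = 0.228). Rrm1 had 80.9% and 84.2% against 78.4% and 82.4%, an overlapping pair of groups. Set beside the median of -9.16 points over all genes, these differences were 15.8 points above it for Tyms and 11.3 for Rrm1 (2.15 points, limma, adjusted p = 0.599). With the median cover of each library subtracted, a scale on which the median difference of all genes was 7.52 points, Tyms was at 23.3 points (limma, adjusted p = 0.000892) and Rrm1 at 18.8 points (limma, adjusted p = 0.000859). On that scale 3757 of the 9514 genes were called higher. With lists of equal covered length, where 1533 genes were called higher, they were 16.9 (limma, adjusted p = 0.0155) and 48.8 points higher (limma, adjusted p = 0.0152). With −log10 q of at least 3, where 639 genes were called higher, Rrm1 was called (19.6 points, limma, adjusted p = 0.0142) and Tyms was not (6.17 points, limma, adjusted p = 0.474). Mthfd2 had 25.7% and 31.0% against 30.1% and 38.6%, overlapping values. Shmt1 had 15.8% and 11.6% against 13.4% and 16.8%, also overlapping. With all deposited peaks and no centring, the restricted and control groups of Shmt1 thus lay apart at day 1 and together at day 5. With libraries centred, Shmt1 was called higher at day 5 too (15.3 points, limma, adjusted p = 0.00921). With −log10 q of at least 3 its day 1 groups overlapped.

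The effect of restriction differed between the days in 2 of the 8 members, both more negative at day 5, where 3.58% of all genes were called more negative and 1.62% more positive. For Shmt1 the day 5 difference minus the day 1 difference was -29.5 points (SE 5.59, limma, adjusted p = 0.0196). That call was lost without any 1 of 6 libraries (both of each day 5 group and both of control day 1), at adjusted p of 0.0539 to 0.102 (limma). For Aldh1l2 the value was -37.3 points (SE 5.43, limma, adjusted p = 0.00642), from a day 1 difference of -10.1 points and a day 5 difference of -47.4 points. With −log10 q of at least 3 neither was called, at -11.1 points for Shmt1 and -10.1 for Aldh1l2 (limma, adjusted p = 0.457 and 0.837). With lists of equal covered length the Shmt1 value was larger, at -38.8 points (limma, adjusted p = 0.0634), and that of Aldh1l2 smaller, at -13.2 points (limma, adjusted p = 0.449), and neither was called. The other 6 members had adjusted p of 0.335 to 0.879 (limma), which does not show that their effects were alike. Of these, Rrm1 had 8.14 points, and with −log10 q of at least 3 it was called more positive at day 5, at 29.9 points (limma, adjusted p = 0.0387). With lists of equal covered length the Rrm1 value was 50.9 points and was not called (limma, adjusted p = 0.119).

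**Figure D3:**
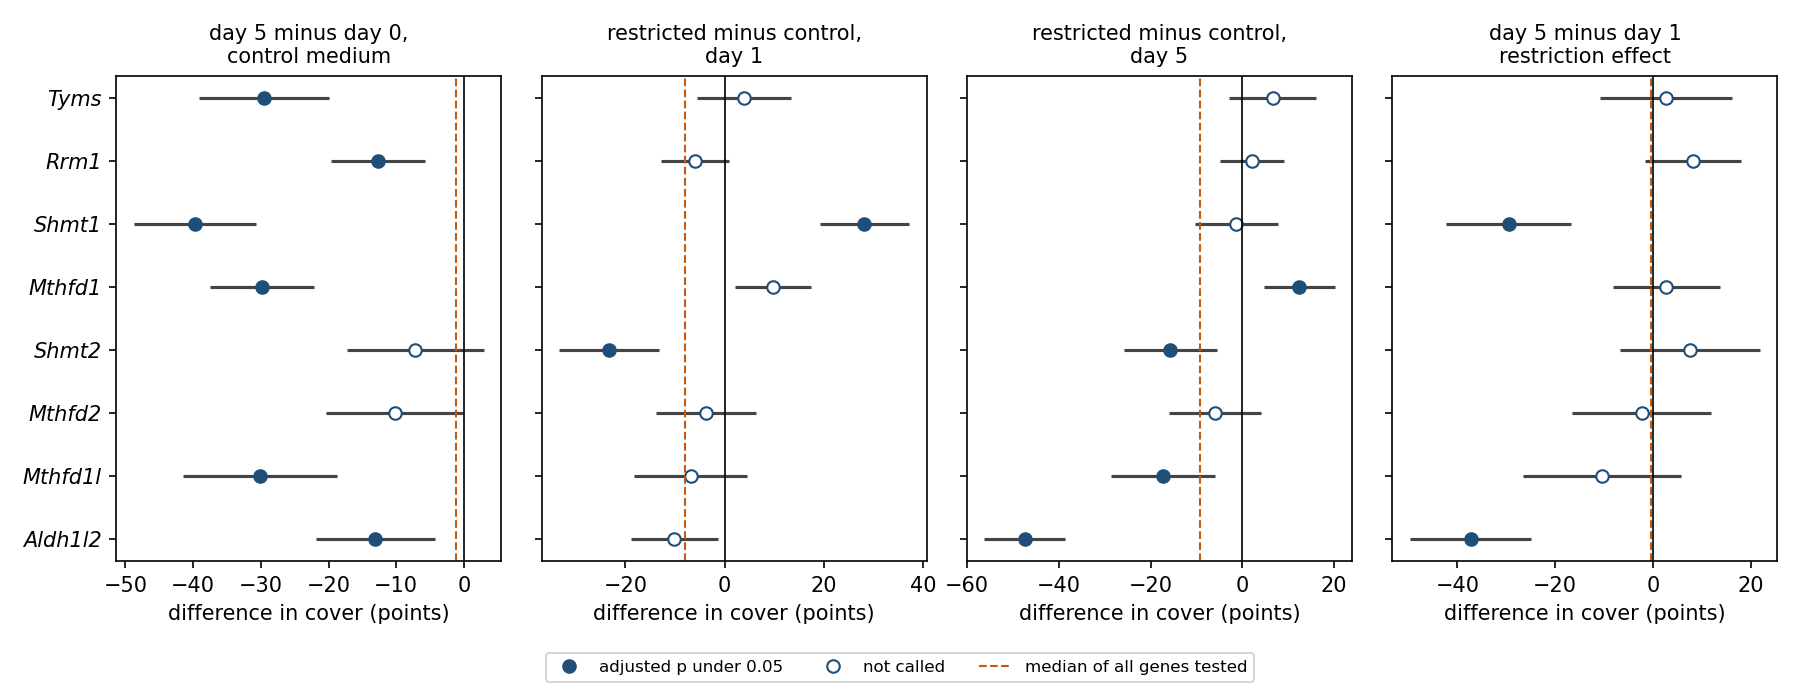
Differences in cover in percentage points (horizontal axis) for the 8 tested genes with 95% intervals, in 4 comparisons of WT groups. Filled points had an adjusted p under 0.05 in limma and the dashed line is the median of all 9514 genes. Tyms, Shmt1, Mthfd1 and Mthfd1l lie far left of the median gene in the day 5 against day 0 panel, and Aldh1l2 lies at -47.4 points in the day 5 restriction panel.

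Restricted day 5 was also compared with day 0, which is the control group of the previous time comparison as well, so the 2 sets of values share libraries. All 8 tested members were lower, where 43.5% of genes were called lower and 4.05% higher and the median gene differed by -9.84 points. The differences ran from -10.5 points in Rrm1 to -60.5 points in Aldh1l2, with Mthfd1l at -47.4 and Shmt1 at -41.1 points. Tyms and Mthfd1 differed from day 0 by -22.9 and -17.4 points in restricted cells, beside -29.5 and -29.8 points in control cells. With libraries centred, 3 members were still called lower, Mthfd1l, Aldh1l2 and Shmt1, and Rrm1 was called higher. With lists of equal covered length, Mthfd1 (-5.22 points), Aldh1l2 (-14.7) and Rrm1 (-12.4) were not called, and with −log10 q of at least 3 Mthfd1 (-19) and Rrm1 (-12.4) were not. The call of Mthfd2 was lost without replicate 1 of restricted day 5 (-13.6 points, limma, adjusted p = 0.109), and that of Rrm1 without the same library (adjusted p = 0.118) or without replicate 1 of day 0 (adjusted p = 0.106).

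By level over the 5 WT groups, with all deposited peaks over the whole gene body, the members followed different orders. Tyms was highest at day 0 (50.2% ± 5.50, SD, n = 2) and lowest at control day 5 (20.7% ± 0.689, SD, n = 2), and neighbours in the order overlapped among day 0 and the day 1 groups but not below them. Mthfd1 ran from 79.0% ± 2.21 (SD, n = 2) at day 0 through both restricted groups, whose values overlapped, to the control groups at day 1 and day 5, which lay lowest. Aldh1l2 separated into 5 groups without overlap, from 67.9% ± 3.61 (SD, n = 2) at day 0 to 7.35% ± 0.954 (SD, n = 2) at restricted day 5. On the bases of Aldh1l2 shared with no other gene, control day 1 (46.1% and 50%) overlapped control day 5 (47.7% and 46.8%), and with −log10 q of at least 3 restricted day 1 ran from 3.37% to 45.1% and overlapped 3 other groups. For Shmt2 the 2 restricted groups (51.8% ± 3.85 and 53.6% ± 6.99, SD, n = 2 each) overlapped each other and lay below the other groups. In Rrm1 the only neighbours without overlap were day 0 and control day 1.

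Rrm2 was listed at 0 in all 20 libraries. The peak nearest to its body was 31.2 to 44.8 kb away in the WT libraries, and the promoter window and the body had none. In the KO libraries a peak lay 31.3 to 31.5 kb away, also in KO line 2 at restricted day 1, which covered 0.00821 Mb in all. What that peak marks was not tested. Its body is short, at 5.893 kb. Shmt2, of 5.322 kb, was covered to 48.6% to 77.6%, and 50.4% of the 2697 genes of 4 to 8 kb had no cover in any WT library. Of its neighbours, Klf11, at 45.5 kb, had 51.5% to 80.9% cover, and Cys1, at 26.4 kb, had 0 to 12.1%. The subunit gene Rrm1, by contrast, had 77.6% to 95.1%. The files do not show whether the gene was transcribed.

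The KO lines were compared with WT cells to see how much of the called mark the genes kept. Averaged over the 5 conditions, cover of the members other than Rrm2 was 29.5% to 84.5% in WT cells and 0.05% to 6.21% in the KO lines. The difference ran from 29.1 points in Shmt1 to 78.3 points in Rrm1, with adjusted p = 0.000334 in each (exact permutation test, two-sided, labels moved within condition), and the smallest unadjusted p this design can give is 0.000257. These p-values rest on 2 KO lines, whose libraries from the 5 conditions were treated as separate units. Genes were tested where mean cover over the 20 libraries was at least 5%, which these genes passed through their WT cover, so that they came out higher in WT cells was fixed by the filter, as for 96.8% of the 8861 genes tested, and nothing is read from the count. The call of Tyms was lost on ranks of cover (exact permutation test, adjusted p = 0.0627). In KO line 2 the 9 genes were at 0 in all 5 libraries, except Mthfd1 with 0.5% at control day 5, a peak that covered 58% of the window around its start site.

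KO line 1 had cover on some members, and which ones differed between day 0 and day 5. These values have 1 library each, so they are descriptions without a test. At day 0, Rrm1 had 27.9%, Tyms 7.93% and Mthfd1l 2.38%, and the other 6 genes were at 0. At control day 1, Rrm1 had 19.2% and Tyms 5.94% alone. Little of this passed −log10 q of at least 3, with 1.19%, 1.15% and 0 at day 0, and 0 for Rrm1 and 0.769% for Tyms at control day 1. At restricted day 1, where this library had 0.307 Mb of peaks, all 9 were at 0. At control day 5, where the library had 74.1 Mb, the members with most cover were the mitochondrial folate enzymes. Shmt2 had 52.2%, Aldh1l2 40.5%, Mthfd1l 22.7% and Mthfd2 21.7%, which are 75.4%, 74.0%, 56.0% and 63.0% of the WT means at that time. These shares depended on the threshold. Mthfd2, with −log10 q of at least 3, was at 0 in KO line 1 against 26.0% and 30.3% in WT cells, and Mthfd1l had 6.44% against 15.4% and 14%. Aldh1l2 had 17% there, above the 5.11% and 12.1% of WT cells, and Shmt2 was the same as with all peaks. Between 41.4 and 45.9 kb from the low-coordinate end of the Aldh1l2 body, whose strand is not given, KO line 1 had 3 peaks where no WT library had one. Of 42 other pathway genes with WT cover at that time, 14 kept at least 50% of the WT mean and 10 were at 0, with a median share of 21.1%. Named after their values were seen, Ctps, the CTP synthase gene, and the purine gene Atic had 74.8% and 70.0% cover, and Gcsh and Amt, of the mitochondrial glycine cleavage system, were at 0. Over the 9514 genes, the median share of the WT mean was 19.7%. Of these genes, 71.7% had any cover in this library and 36.1% had at least 20% cover. How many of all genes kept at least 50% of the WT mean was not computed, so nothing is read from the counts of pathway genes. Rrm1 (14.9%), Shmt1 (3.20%) and Tyms (1.38%) were at 18.6%, 21.2% and 6.68% of WT, and Mthfd1, in spite of 50.4% and 48.0% cover in WT cells, was at 0. With all deposited peaks, Rrm1 and Tyms thus had less cover at control day 5 than at day 0 although the library covered more of the genome. With −log10 q of at least 3 both were at 0 at control day 5, against 1.19% and 1.15% at day 0. At restricted day 5, with 45.8 Mb, Mthfd1l had 4.78%, Shmt1 1.46% and Aldh1l2 0.76%, and the rest were at 0. KO line 2 at control day 5 had 5.69 Mb of peaks, and the absence of its cover on these enzymes cannot be told apart from the few peaks called there.

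**Figure D4:**
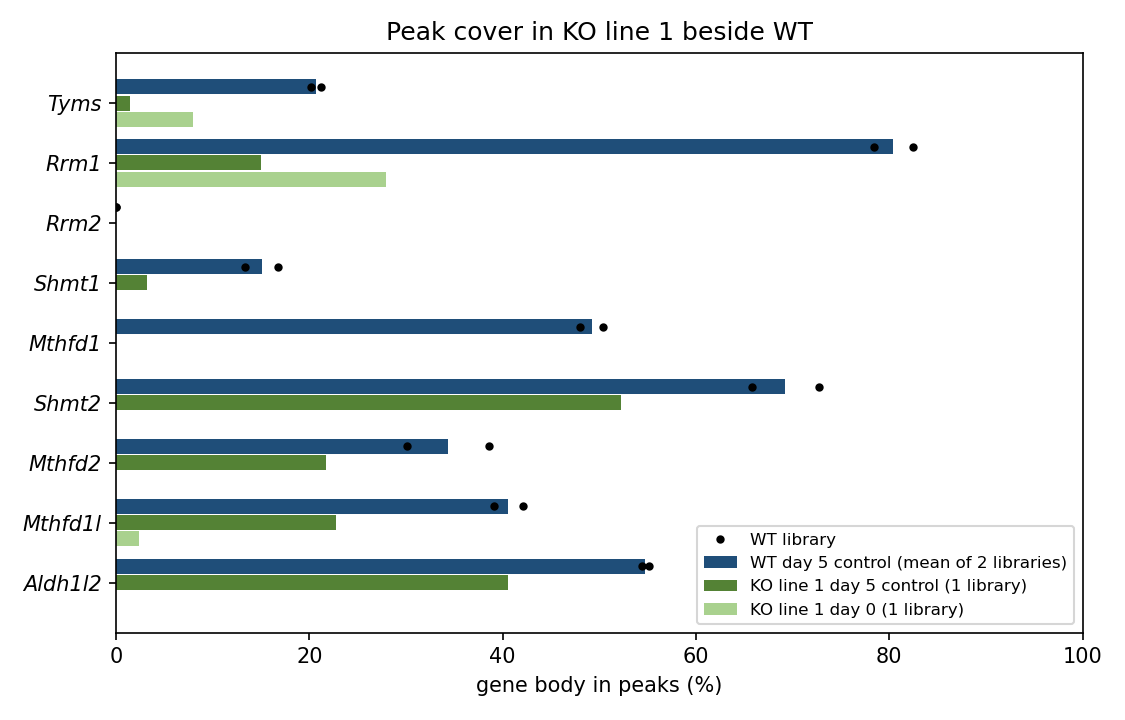
Cover in percent of the gene body (horizontal axis) of each gene in WT cells at control day 5 (bar is the mean, dots are the 2 libraries) and in KO line 1 at control day 5 and at day 0 (1 library each). At control day 5, with all deposited peaks, Shmt2, Aldh1l2, Mthfd2 and Mthfd1l in KO line 1 are at 56.0% to 75.4% of the WT mean and Tyms, Rrm1, Shmt1 and Mthfd1 at 0 to 21.2%, and with −log10 q of at least 3 Mthfd2 is at 0 as well.

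The rest of the pathway was followed in a list of 55 further genes, of which 44 passed the filter on low cover in WT cells. From day 0 to control day 5, 20 of the 44 were called lower and 2 higher, with a median of -11.2 points against -1.17 over all genes, of which 15.6% were called lower and 12.2% higher. Among the lower ones, Dctd, the dCMP deaminase that supplies the substrate of Tyms, went from 39.6% and 35.9% to 0 in both replicates (-37.7 points, limma, adjusted p = 5.32e-05), and the deoxycytidine kinase gene Dck fell by 45.0 points (limma, adjusted p = 0.00927). Of the purine synthesis genes 6 of 13 were lower and 1 higher, of the pyrimidine synthesis genes 3 of 6 were lower, of the genes of serine synthesis 2 of 3, of those of deoxynucleotide supply and salvage 6 of 13 with 1 higher, of folate uptake, storage and activation 2 of 5, and of the other folate enzymes 1 of 4, whose median was 0.734 points. The 2 higher genes were Adssl1, the adenylosuccinate synthase of muscle, which went from 0 in both replicates to 73.9% and 74.1% (limma, adjusted p = 9.96e-07), and Dguok, a mitochondrial deoxyguanosine kinase (15.8 points, limma, adjusted p = 0.0307). At control day 1, 3 of 44 were called lower and none higher, near the 5.67% and 0.967% of all genes, among them Dctd (-29.9 points, limma, adjusted p = 0.00232), the folate carrier gene Slc19a1 and Samhd1.

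Under restriction at day 1, 4 of the 44 pathway genes were called higher and 8 lower, with a median of -0.941 points against -7.99 over all genes, of which 2.38% were called higher and 36% lower. Dctd had 31.2% and 23.7% under restriction against 9.45% and 6.16% in control medium (19.7 points, limma, adjusted p = 0.00186), and Slc19a1 was higher by 12.8 points (limma, adjusted p = 0.0211). Like Shmt1, these genes were higher in restricted than in control libraries at day 1. The purine enzyme genes Impdh2 (-45.3 points, limma, adjusted p = 0.000121) and Paics (-39.0 points, limma, adjusted p = 0.00142) fell most, followed by the salvage gene Aprt (-31.7 points, limma, adjusted p = 0.012).

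At day 5, 5 of the 44 were called higher under restriction and 11 lower, with a median of -2.99 points against -9.16 over all genes, of which 4.32% were called higher and 41.5% lower. The muscle gene Adssl1 had 19.8% and 16.5% against 73.9% and 74.1% and fell by 55.8 points (limma, adjusted p = 5.30e-06). Tk1, thymidine kinase of dividing cells, fell by 38.3 points (limma, adjusted p = 0.000476) from 68.5% and 70.4% to 33.2% and 29.2%, and Dtymk, the next kinase on the way to thymidine triphosphate, fell by 35.8 points (limma, adjusted p = 0.00674). Those that rose most were Pnp (22.3 points, limma, adjusted p = 0.00274), Gart (15.4 points, limma, adjusted p = 0.0153) and Prps1 (15.2 points, limma, adjusted p = 0.0162). By list, 2 of the 13 purine synthesis genes were called higher and 3 lower, and of the 13 salvage and supply genes, Pnp among them, 2 were higher and 5 lower. Restricted day 5 against day 0 gave 23 of 44 lower and 1 higher, beside 43.5% and 4.05% of all genes. The lower ones were led by Tk1 (-56.2 points, limma, adjusted p = 5.85e-05), Dtymk (-54.7 points, limma, adjusted p = 0.000713) and Phgdh, the first enzyme of serine synthesis (-50.2 points, limma, adjusted p = 3.61e-05), and the higher one was Adssl1 (18.1 points, limma, adjusted p = 0.000513). Between the days the restriction effect differed for Impdh2 (25.6 points, limma, adjusted p = 0.0455) and Adssl1 (-54.7 points, limma, adjusted p = 0.000114) alone among the 44. Over all genes, 1.62% were called more positive at day 5 and 3.58% more negative. Against the KO lines, where the filter is passed through WT cover, the pathway genes with the largest differences were Cad, Gart and Adsl (78.5, 76.7 and 75.2 points higher in WT cells).

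The genes whose cover followed each member most closely over the 10 WT libraries were named by the highest Pearson correlation among 9514 genes. The points are the same 10 libraries for every gene, in 5 groups that differ in covered length, and the values are given as a description. Tyms was most like Hells (r = 0.992), Orc1 (0.988) and Ercc6l (0.985). Mthfd1l was most like Kifc5b (0.982), Ncapd2 (0.979) and Kif18b (0.978), and Aldh1l2 most like Cdk1 (0.982), Racgap1 (0.979) and Fads2 (0.974). For Shmt1 the first genes were Oxct1 (0.984), Fnip2 (0.972) and the pathway gene Dctd (0.969). For Mthfd2 they were Hspa12b (0.957), the pathway gene Psph (0.954) and Plk1 (0.940). Shmt2 was most like Sema4c, Mpg and Cfl1 (0.979, 0.979 and 0.975), Mthfd1 most like Frrs1, Dcp2 and Dlg5 (0.966, 0.956 and 0.952), and Rrm1 most like Samd11, Naaladl1 and Zdhhc3 (0.977, 0.968 and 0.954). Among the members themselves, r over the 10 WT libraries was highest between Mthfd2 and Mthfd1l (0.909) and between Mthfd1l and Aldh1l2 (0.895), and lowest between Shmt1 and Shmt2 (0.0658).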

How the data were processed

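The 20 deposited files are broad-peak lists of H3K36me3, 1 per library. The authors deposited for each peak a score, a fold enrichment, a −log10 p and a −log10 q. These describe peaks within a list, and the score and fold were not used to compare libraries. Across the 20 lists −log10 q was at least 1.0. The build GRCm38 is named in the submitters' processing notes, and the peak caller is not given in the sources used here. Drosophila chromatin was added as a spike-in per the labels' protocols, but nothing was scaled by it in this work. The shared input library was not used here. Depth per library is unknown, so no counting interval is given. The KO libraries follow the labels, which name 2 lines; the peak names inside the lists call them replicates.

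Overlapping or touching peaks of a library were joined (autosomes, X and Y), and cover was the percent of a RefSeq gene body (GRCm38.p6) inside them (Python 3.11.15). Cover of 9514 genes with a mean of at least 5% over the 10 WT libraries was tested with limma 3.58.1 in R 4.3.3 (lmFit, eBayes with trend and robust settings) in a model of 5 groups that share 1 estimate of the spread, with Benjamini-Hochberg adjustment within a contrast and calls at 0.05. WT and KO libraries were compared by an exact permutation test per gene. Both steps were tested on simulated data. Alternatives were a −log10 q of at least 3, lists trimmed to the covered length of the shortest WT list by highest −log10 q, libraries centred by subtracting their median cover over the tested genes, ranks of cover, the compared libraries alone, the replicate number as a block, no filter or a mean cover of at least 20%, bodies without bases of other genes, and leaving out each library, and for the KO lines each line alone and no restricted day 1. Of the pathway list, the text names per contrast the called genes that differed most, at most 3 higher and 3 lower. An item that this rule would name is not reported here. The members, lists and tests were chosen with earlier results of these data known.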

Additional observations from a re-analysis of the deposited data

Results flagged for a closer look

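The restriction effect differed between day 1 and day 5 in 2 of the 8 tested genes. At day 1 restricted minus control cover of Shmt1 was 28.2 points, at day 5 it was -1.35 points, and the day 5 value minus the day 1 value was -29.5 points (limma, adjusted p = 0.0196). Aldh1l2 had -10.1 points at day 1 and, at day 5, -47.4 points, and the difference between the days was -37.3 points (limma, adjusted p = 0.00642). Over the alternatives, adjusted p ran from 0.00738 to 0.457 for Shmt1 and from 0.00198 to 0.837 for Aldh1l2. Covered length differed between the libraries of the day 1 groups (110 to 150 Mb) and of the day 5 groups (131 to 183 Mb). With lists of equal covered length neither gene was called, at -38.8 points for Shmt1 (limma, adjusted p = 0.0634) and -13.2 points for Aldh1l2 (limma, adjusted p = 0.449).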

How the results depend on the processing

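For single genes, 410 of the values under alternatives other than leaving out a library kept their direction and side of the threshold, 36 lost a call, 16 gained one and 32 changed sign. With 1 library left out the counts were 605, 27, 1 and 7. Peak lists carry no depth, so nothing here shows which differences more reads would have resolved. In each case below the cause was not tested, except that leaving out libraries or genes leaves fewer to test.

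Genes called ran from 2356 to 3994 (main value 3648) at day 1 restriction and from 2799 to 4655 (main value 4356) at day 5 restriction with 1 library left out. They ran from 138 to 1011 (main value 631) for day 0 to day 1 and from 215 to 647 (main value 495) for the difference between days. For day 0 to day 1 they were 236 with lists of equal length, 335 with centring, 194 with ranks and 0 with the compared libraries alone (limma; 1898 genes had an unadjusted p under 0.05 there and 2379 in the fit of 10 libraries). For day 0 to day 5 they were 1617 (from 2641) with the compared libraries alone and 1750 with a mean cover of at least 20%, which also gave 188 for the difference between days and 5415 (from 8585) for WT against KO.

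Members called higher under restriction at day 1 (1) became 0 with −log10 q of at least 3, 2 with equal-length lists, 4 with centring, 3 with ranks and 2 with no filter. Those called lower (1) became 0 with centring and 0 with ranks, and ran from 1 to 2 with 1 library left out. At day 5, members called higher (1) became 2 with −log10 q of at least 3, 3 with equal-length lists, 4 with centring, 3 with ranks and 0 without bases of other genes, and ran from 0 to 1 with 1 library left out. Those called lower (3) became 1 with −log10 q of at least 3, equal-length lists, centring and ranks, and ran from 1 to 3 with 1 library left out. From day 0 to day 1, members called lower (2) became 0 with equal-length lists and 0 with the compared libraries alone. At restricted day 5 against day 0, those called higher (0) became 1 with centring, and those called lower (8) became 5 with equal-length lists, 3 with centring and 3 with ranks. For the difference between days, those called higher (0) became 1 and those called lower (2) became 0 with −log10 q of at least 3, and those called lower became 0 with equal-length lists and ran from 1 to 2 with 1 library left out.

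Signs turned as follows, in points or, for ranks, percentile points. With centring, day 1 restriction gave 11.4 for Mthfd2, 8.30 for Mthfd1l, 5.06 for Aldh1l2 and 9.19 for Rrm1. Day 5 restriction gave 15.3 for Shmt1, 10.7 for Mthfd2 and 0.994 for Shmt2. Day 0 to day 1 gave 6.90 for Mthfd2, 7.13 for Shmt2, 1.87 for Aldh1l2 and 1.55 for Rrm1, and restricted day 5 against day 0 gave 1.68 for Mthfd1, 2.78 for Mthfd2 and 8.50 for Rrm1. With ranks, day 1 restriction gave 6.36 for Mthfd2, 4.71 for Mthfd1l, 2.97 for Aldh1l2 and 0.987 for Rrm1, and day 5 restriction 4.69 for Shmt1 and 4.64 for Mthfd2. Day 0 to day 1 gave 3.25 for Mthfd2, 3.43 for Shmt2 and 1.07 for Aldh1l2, restricted day 5 against day 0 gave 0.391 for Mthfd2, and the difference between days -0.119 for Tyms. With equal-length lists, Mthfd1l was at 3.97 and Aldh1l2 at 6.52 in day 1 restriction, Mthfd1l at 1.36 in day 5 restriction, and Mthfd1l at 0.392 and Aldh1l2 at 26.7 from day 0 to day 1. With −log10 q of at least 3, Aldh1l2 was at 1.55 in day 1 restriction and Mthfd2 at 0.709 in the difference between days. With 1 library left out, Mthfd1l ran from -13.9 to 0.132 in day 1 restriction, Shmt1 from -3.46 to 0.756 in day 5 restriction, and in the difference between days Tyms from -0.265 to 5.78 and Mthfd2 from -6.51 to 1.98.

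Calls higher made up 6.20% of calls at day 1 restriction and 73.9% with centring, 9.44% and 72.9% at day 5 restriction, 14.6% and 67.8% from day 0 to day 1, 43.8% and 55.4% from day 0 to day 5, and 8.51% and 75.3% from day 0 to restricted day 5.

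Replicate numbers are shared by the groups, but replicate differences correlated between -0.439 and 0.0614 across pairs of groups, so the numbers were not taken to pair libraries. With the replicate block the genes called were 3436, 4176, 466, 2457, 4348 and 399 for restriction at day 1, restriction at day 5, day 0 to day 1, day 0 to day 5, day 0 to restricted day 5 and the difference between days, and the block changed the call of Aldh1l2 from day 0 to day 5 (-13.1 points, limma, adjusted p = 0.0504) and no other call of a member.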
